A study of Mus musculus with 2 samples.

Results

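H19, Igf2, Dlk1, Meg3, Peg3, Mest, Grb10 and Plagl1 are imprinted growth genes, and their transcript levels were followed through the cell classes of the embryonic mouse eye. The members were taken by gene symbol, and all 8 were found among the 31053 genes of each library. Single-cell RNA sequencing (scRNAseq) had been performed on e15.5 eye cups, with the cornea, lens and optic nerve removed. The controls were Myrf fl/fl, homozygous for a floxed allele of the transcription factor gene Myrf, and carried no Cre by their label. The mutants were Rx>cre Myrf fl/fl, which carry the same floxed alleles and a Cre transgene under Rx control, which acts in the eye field that gives rise to neural retina and retinal pigment epithelium (RPE). Each genotype gave 1 library from 3 pooled eye cups, so differences between genotypes had no replicate check and no test was made.

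Imprinted genes are expressed mainly from one parental copy, because methylation laid down in the germ line marks the copies differently. Many act on fetal growth. In general terms, genes active on the paternal copy tend to promote growth and genes active on the maternal copy tend to restrain it. H19 and Igf2 share enhancers on opposite parental copies of one locus, and Dlk1 and Meg3 form a second such pair. H19 and Meg3 are long non-coding RNAs expressed from the maternal copy. Igf2 encodes insulin-like growth factor 2, and Dlk1 encodes a Notch-like protein that keeps precursor cells undifferentiated. Peg3 encodes a zinc finger protein, Mest a hydrolase-like protein and Plagl1 a zinc finger transcription factor. Grb10 encodes an adaptor protein that dampens insulin and IGF receptor signalling. The 3′ assay used here counts transcripts without telling the parental copies apart, so allelic expression was not measured.

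The members lie on 5 chromosomes of GRCm38 (mm10). H19 is at chr7:142575529-142578143 on the minus strand and Igf2 at chr7:142650766-142666816 on the same strand. Dlk1 is at chr12:109452823-109463336 and Meg3 at chr12:109541001-109571726, both on the plus strand. Peg3 is at chr7:6703892-6730431 (minus), Mest at chr6:30723547-30748465 (plus), Grb10 at chr11:11930508-12038683 (minus) and Plagl1 at chr10:13060504-13131694 (plus). Some of these genes also contain miRNA hairpins, and 9 mature miRNAs in the RefSeq table of GRCm38.p6 lay within a member on its own strand. They are shown because the hosts were measured here, while the mature miRNAs were not, and for the miRNAs in introns the spliced host RNA does not contain them. Capitals mark the seed, bases 2 to 8, which pairs with targets. miR-675 lies in an H19 exon (chr7:142577078-142577133, both arms), miR-483 in an Igf2 intron (chr7:142654932-142654989), miR-1906 in a Meg3 exon (chr12:109544588-109544609), miR-770 in a Meg3 exon (chr12:109563710-109563765) and miR-335 in a Mest intron (chr6:30741314-30741375).
mmu-miR-675-5p: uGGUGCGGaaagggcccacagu
mmu-miR-675-3p: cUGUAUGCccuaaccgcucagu
mmu-miR-483-5p: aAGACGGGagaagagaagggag
mmu-miR-483-3p: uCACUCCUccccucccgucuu
mmu-miR-1906: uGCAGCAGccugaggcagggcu
mmu-miR-770-5p: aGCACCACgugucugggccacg
mmu-miR-770-3p: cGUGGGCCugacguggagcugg
mmu-miR-335-5p: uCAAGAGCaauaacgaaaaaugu
mmu-miR-335-3p: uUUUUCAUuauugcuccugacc
The 9 seeds all differed, so the hosts contain no shared seed family. Cells that resembled periocular mesenchyme held 74.8% of all control and 73.0% of all mutant UMIs of Meg3, the host of miR-1906 and miR-770. Mest, the host of miR-335, had its highest level in cells that resembled endothelium.

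Promoters of Meg3 and Peg3 are shown because they were the member windows that held the CRE letters defined here, and they were picked after the motif search. Each runs from 250 bases before the transcription start to 50 bases after it, on the gene's strand. Capitals mark matches on either strand to a TATA box (TATAAA), a CRE (TGACGTCA) and a CCAAT box (CCAAT), the motifs found there.
Meg3, chr12:109540746-109541045, plus strand: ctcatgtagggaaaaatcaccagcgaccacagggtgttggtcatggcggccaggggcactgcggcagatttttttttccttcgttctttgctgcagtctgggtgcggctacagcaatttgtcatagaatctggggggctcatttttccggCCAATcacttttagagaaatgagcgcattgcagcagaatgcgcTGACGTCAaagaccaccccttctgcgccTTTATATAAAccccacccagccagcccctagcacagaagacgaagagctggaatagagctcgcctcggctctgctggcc
Peg3, chr7:6730370-6730669, minus strand: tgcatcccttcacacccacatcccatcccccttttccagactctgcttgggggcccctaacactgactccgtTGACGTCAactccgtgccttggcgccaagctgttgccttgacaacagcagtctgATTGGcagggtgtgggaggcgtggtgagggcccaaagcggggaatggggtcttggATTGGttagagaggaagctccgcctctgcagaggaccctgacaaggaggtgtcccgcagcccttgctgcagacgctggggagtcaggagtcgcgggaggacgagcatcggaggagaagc
Both windows held the CRE letters, which were found in 1.79% of 32851 RefSeq promoters of this length. CCAAT was found in 37.4% and TATAAA in 13.6% of them, the latter as overlapping matches on both strands in Meg3. No other member promoter held the CRE letters, among 7 of 8 members that had an entry. A match describes the letters only.

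The control library held 13017 barcodes and the mutant library 13880, with medians of 9339 and 8702 unique molecular identifiers (UMIs, each 1 captured transcript). After filters, 11544 control and 12668 mutant cells were kept, and 35 clusters were made without the members among the features. Clusters were assigned from marker genes to 15 classes, here called "-like", and 6 clusters with 2606 control and 2798 mutant cells remained unnamed. The libraries shared 69 barcodes, 59 of them among kept cells. Y-linked UMIs were found in 3 control cells (0.026%) and in 41.8% of mutant cells, and Xist in 71.7% and 27.5%, so the pools differed in the sex of the embryos. Myrf itself had 293 control and 58 mutant UMIs in RPE-like cells, or 76.4 and 30.1 CPM, the level of a gene among 1e+06 UMIs of its class, a ratio of 0.394 (95% interval 0.292 to 0.524), although 3′ reads need not come from the floxed part of the gene. All intervals are 95% and exact, and they cover counting error only, not the spread between embryos.

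The members separated into a group highest in cells like mesenchyme, muscle, pericytes and endothelium and a group that was also high in retinal progenitors. The pericyte-like class was 1 cluster, led by Rgs5, Tagln and Acta2, with only 1 of its naming markers among its leading genes. Its collagens stood at 47.6% and 44.1% of the level in cells like periocular mesenchyme. It may hold mesenchyme cells, and its name is uncertain. H19, Igf2, Dlk1, Meg3 and Peg3 were highest in cells outside the neural retina. Mest was highest in endothelial-like cells, and was also abundant in RPE-like and retinal progenitor-like (RPC-like) cells. Grb10 and Plagl1 also had high levels in RPC-like cells. The highest of the 15 classes was the same in both libraries for 6 of the 8 members (for all 8 with a mitochondrial limit of 5%), and the Spearman correlation of the class levels between libraries was 0.739 (H19) to 0.964 (Peg3). These correlations describe 15 classes of 2 libraries that were clustered together, so they carry no p.

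**Figure D1:**
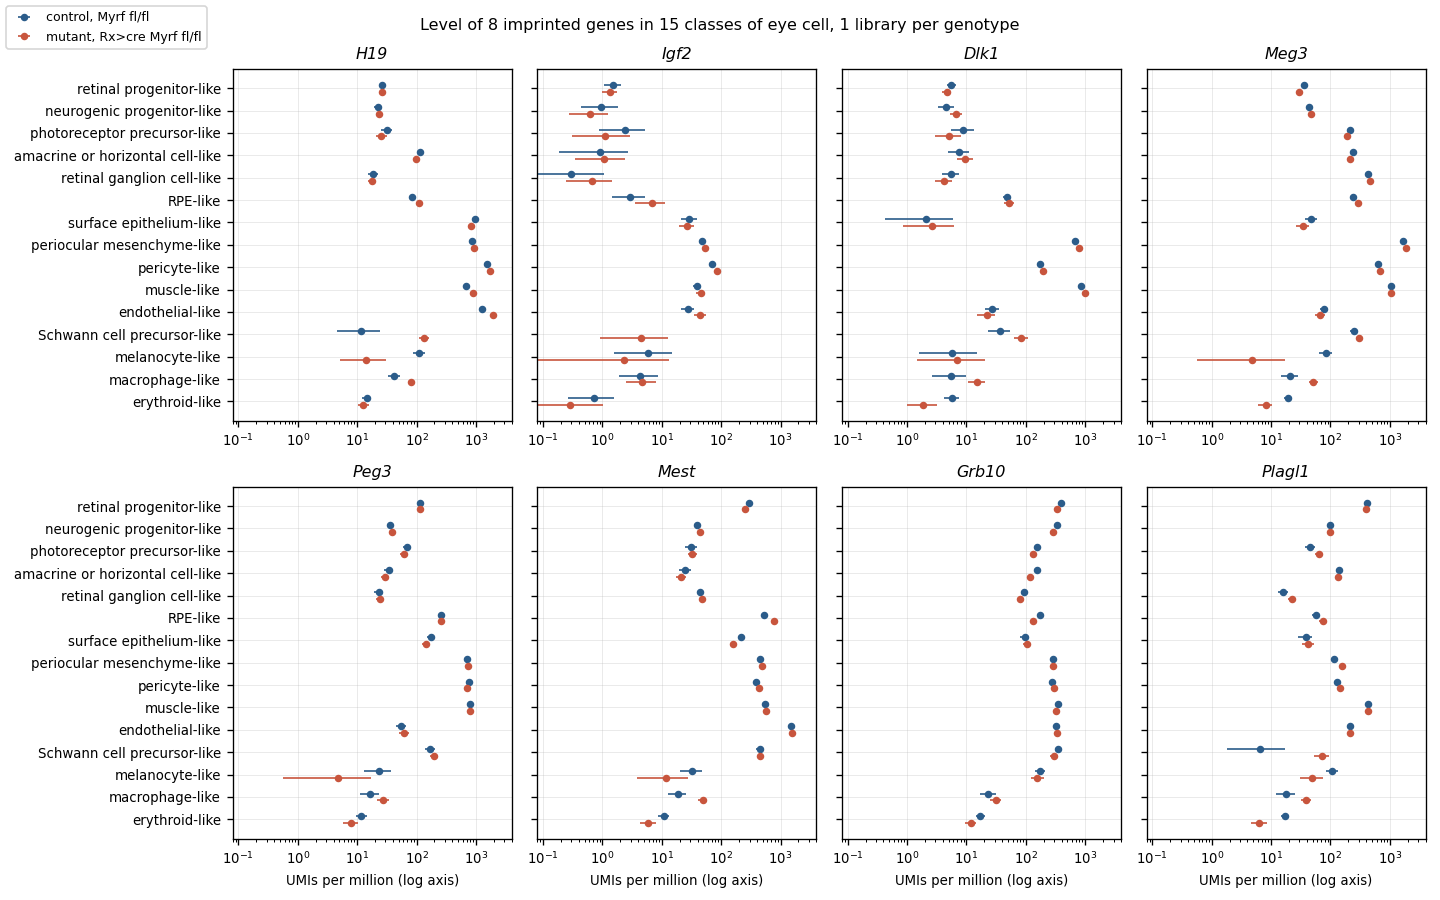
Level of each member in each named class, in CPM on a log axis, with control and mutant libraries as separate points and exact 95% Poisson intervals for counting error (levels of 0 are not drawn). Dlk1 and Meg3 sit high in muscle-like and periocular mesenchyme-like cells in both libraries, while Grb10 is spread more evenly over the classes.

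H19, the maternally expressed non-coding RNA, reached 1537 CPM in control and 1730 CPM in mutant pericyte-like cells. Endothelial-like cells had 1276 and 1912 CPM, surface epithelium-like cells 971 and 815 CPM, and periocular mesenchyme-like (POM-like) cells 850 and 913 CPM. The higher of these first 2 classes was pericyte-like in the control and endothelial-like in the mutant, but their order depended on the settings. With a mitochondrial limit of 5% the pericyte-like class was highest in both libraries (1362 and 1423 CPM), as it was among cells that had Xist but lacked Y-linked UMIs and without the 5 cells richest in H19. Without cells over 20000 UMIs the endothelial-like class was highest in both (2170 and 2840 CPM), as it was when every cell weighed the same. Endothelial-like cells also differed in the estimated share of free RNA, which was 0.498% (control) and 28.7% (mutant). With it subtracted the order was as reported, with the pericyte-like class highest in the control (1825 CPM) and the endothelial-like class in the mutant (2494 CPM). POM-like cells held 50.2% of all control and 49.6% of all mutant H19 UMIs. RPC-like cells had 26.4 and 26.7 CPM.

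Igf2, the growth factor gene next to H19, followed the same classes at its own scale. It was highest in pericyte-like cells, at 69.3 and 85.1 CPM, followed in both libraries by POM-like cells at 48.2 and 52.9 CPM. Muscle-like cells had 39.5 and 45.1 CPM and endothelial-like cells 27.6 and 44.2 CPM. Igf2 counts are uncertain, since the gene model Gm49394 on the same strand covers 99.9% of the 3287 bases of the last Igf2 exon, and reads that fit both genes may have been left out by the authors' counting. All kept cells together held 5110 Igf2 UMIs and 2 Gm49394 UMIs.

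Dlk1, the Notch-like regulator of precursor cells, was highest in muscle-like cells at 854 and 993 CPM and next in POM-like cells at 666 and 776 CPM. Pericyte-like cells had 171 and 193 CPM and RPE-like cells 47.7 and 53.0 CPM. RPC-like cells were at 5.56 and 4.62 CPM, near the bottom of the order.

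Meg3, the non-coding partner of Dlk1, was highest in POM-like cells at 1696 and 1858 CPM, where 84.2% of control and 83.1% of mutant cells had a UMI after each cell was thinned to 2000 UMIs. Muscle-like cells followed with 1039 and 1060 CPM. Meg3 was also present in neurons. Retinal ganglion cell-like (RGC-like) cells had 425 and 470 CPM, against 35.3 and 29.4 CPM in RPC-like cells, ratios of 12.03 (11.2 to 13.0) and 16.0 (14.9 to 17.1). Amacrine or horizontal-like cells had 240 and 212 CPM and photoreceptor precursor-like cells 212 and 188 CPM.

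Peg3, the zinc finger gene, was at similar levels in 3 classes, with 807 and 787 CPM in muscle-like, 762 and 718 CPM in pericyte-like and 698 and 724 CPM in POM-like cells. Which of these 3 was highest depended on the settings. It was pericyte-like in the control with free RNA subtracted (876 CPM) and POM-like in the mutant at Leiden resolution 0.5 (791 CPM). In the other library it was muscle-like in each case. RPE-like cells had 263 and 259 CPM and RPC-like cells 114 and 115 CPM. Neurogenic progenitor-like cells had 35.3 and 39.3 CPM.

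Mest was highest in endothelial-like cells at 1485 and 1560 CPM. RPE-like cells had 527 and 770 CPM, muscle-like cells 540 and 575 CPM and POM-like cells 452 and 496 CPM. The intervals of RPE-like and muscle-like cells overlapped in the control and not in the mutant. In RPC-like cells Mest had 294 and 251 CPM.

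Grb10, the adaptor that restrains insulin receptor signalling, had the smallest range over the classes among the members, the highest being 23.3 times the lowest in the control and 28.6 times in the mutant. It had 399 and 337 CPM in RPC-like, 327 and 341 CPM in endothelial-like, 351 and 318 CPM in muscle-like and 282 and 292 CPM in POM-like cells. The highest class was RPC-like in the control and endothelial-like in the mutant, where the intervals of these 2 classes overlapped. Which class was highest depended on the settings. With globin, mitochondrial and ribosomal protein genes left out of the total it was muscle-like in both libraries (558 and 503 CPM). In the mutant it was RPC-like with the 5% mitochondrial limit or without the 5 richest cells, and muscle-like among cells that had Xist but lacked Y-linked UMIs.

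Plagl1, the zinc finger transcription factor, was highest in muscle-like cells at 430 and 434 CPM and then in RPC-like cells at 411 and 394 CPM. The intervals of these 2 classes overlapped in the control, and RPC-like cells were highest in the control without the 5 cells richest in Plagl1 (409 CPM) and in the mutant when every cell weighed the same (398 CPM). RPC-like cells held 51.4% of all control and 57.6% of all mutant Plagl1 UMIs. After thinning, 51.5% of control and 50.6% of mutant RPC-like cells had a Plagl1 UMI.

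Among retinal cells the members followed the path from progenitor to neuron in different ways. Mest, Plagl1, Peg3 and Grb10 were lower in neurogenic progenitor-like cells than in RPC-like cells, and Meg3 was higher in neurons than in either progenitor class. Mest was 7.44 (6.71 to 8.28) times as high in RPC-like as in neurogenic progenitor-like cells in the control and 5.74 (5.27 to 6.26) times in the mutant. The ratios for Plagl1 were 4.23 and 4.07 and those for Peg3 3.24 and 2.94. Grb10 had ratios of only 1.20 and 1.18. Its larger step came later, at 3.55 and 3.58 times neurogenic progenitor-like over RGC-like cells. Over both steps, RPC-like over RGC-like cells, the ratios were 4.26 and 4.22. Plagl1 was 25.6 (21.2 to 31.1) and 17.4 (15.2 to 20.1) times as high in RPC-like as in RGC-like cells. Its neurogenic progenitor-like level, 97.1 and 96.8 CPM, lay above that of RGC-like cells (16.1 and 22.6 CPM). It lay under that of amacrine or horizontal-like cells (138 and 134 CPM), so Plagl1 did not fall in every neuron class. For Meg3, Mest, Grb10 and Plagl1 the order of RPC-like and RGC-like cells was the same in both libraries.

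**Figure D2:**
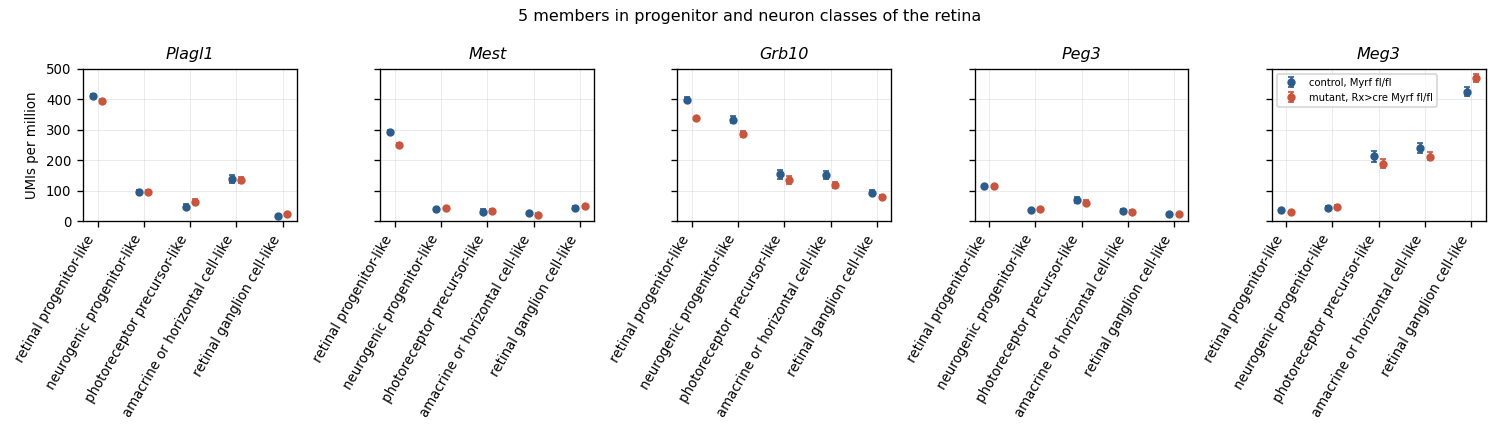
Level of the members in the retinal classes, in CPM on a linear axis from 0, for 5 members from progenitor-like cells to the neuron-like classes, for the control and mutant libraries with exact 95% Poisson intervals. Mest and Plagl1 drop between the progenitor classes while Meg3 is high in ganglion cell-like cells, at 425 and 470 CPM.

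Neuron classes were not uniform. RGC-like cells formed 2 clusters, and the one led by Sncg, Nrn1 and Ina had 779 and 895 CPM of Meg3, against 175 and 202 CPM in the one led by Isl1, Igfbpl1 and Cntn2. Amacrine or horizontal-like cells also formed 2 clusters. In the one led by Ptf1a, Krt73 and Prdm13, with 274 control and 380 mutant cells, Plagl1 had 192 and 193 CPM and H19 142 and 143 CPM. In the one led by Onecut2, Nrxn3 and Tfap2a, with 166 and 264 cells, Plagl1 had 33.2 and 35.2 CPM and H19 63.6 and 18.4 CPM. Meg3 went the other way, with 124 and 106 CPM in the first and 467 and 388 CPM in the second. These clusters were singled out after their values were seen.

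Free RNA from broken cells sets a floor for such levels. Collagen transcripts of mesenchyme, which retinal cells should lack, stood in RPC-like cells at 0.455% (control) and 0.525% (mutant) of their POM-like level. H19 in RPC-like cells stood at 3.104% and 2.93% of its POM-like level, Igf2 at 3.102% and 2.55%, Meg3 at 2.08% and 1.58% and Dlk1 at 0.835% and 0.596%. In macrophage-like cells, which should lack collagens too, these stood at 0.987% and 1.37% of their POM-like level and H19 at 4.97% and 8.85%, so H19 and the collagens were both higher there than in RPC-like cells. After thinning, a Dlk1 UMI was found in 1.08% and 1.02% of RPC-like cells and in 1.05% and 0.723% of erythroid-like cells, with unthinned medians of 10228 and 9520 UMIs against 17013 and 16883.5. Erythroid-like cells gave 89.5% and 90.2% of their UMIs to globins, which lowers every other CPM and share there. H19, Igf2, Meg3 and Dlk1 all stood above the collagens in RPC-like cells as a share of the POM-like level, and the part of free RNA in their low levels was not tested. H19 in amacrine or horizontal-like cells, at 116 and 96.4 CPM, was 4.39 and 3.61 times that of RPC-like cells, while the collagens had 84.2 and 134 CPM there and 59.4 and 94.3 CPM in RPC-like cells.

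POM-like cells fell into 5 clusters, and the members marked them very unevenly. Plagl1 had its lowest level, 6.999 and 27.6 CPM, in the cluster led by A2m, Kera and Matn4, and its highest, 198 and 285 CPM, in the cluster led by Mfap5, Osr2 and Eln. H19 was also low in the first, at 99.96 and 127 CPM, and high in the second, at 1376 and 1652 CPM. Dlk1 was highest in the Mfap5 cluster too, at 1281 and 1585 CPM. Mest was highest in the cluster led by Scx and Tnmd, genes of tendon cells, at 1141 and 1221 CPM. Grb10 varied least among the 5 clusters, by a factor of 1.43 and 1.56. The order of the clusters thus differed between genes, while the lowest and highest clusters named here were the same in both libraries.

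H19 and Igf2 were found in the same cells more often than the product of their shares, and so were Dlk1 and Meg3. Among POM-like cells thinned to 2000 UMIs, 8.13% of control and 9.99% of mutant cells had UMIs of both H19 and Igf2, against 6.70% and 7.34% for the product of the single shares. Igf2 was found in 12.8% of control cells with H19 and in 6.66% of those without, and in 15.9% and 4.54% in the mutant. Dlk1 and Meg3 were found together in 51.2% and 53.5% of cells, with products of 47.5% and 49.2%. Meg3 was found in 90.7% of control cells with Dlk1 and in 75.8% without, and in 90.2% and 72.8% in the mutant. In RPC-like cells of the control, Mest and Plagl1 were found together in 21.6% of cells, with a product of 21.8%. The POM-like shares mix 5 clusters with different levels, so a shared cluster and a shared cell were not told apart.

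The likeness of patterns was measured as Pearson's correlation of log levels over 63 points, the clusters of each library with enough cells, for 12512 genes. The points share 2 libraries and related cells, so the values describe these data only. H19 and Igf2 were each other's closest gene, at 0.945. The next after H19 were Arhgap29 (0.920) and Cavin1 (0.917), and after Igf2 they were Cdc42ep5 (0.935) and Airn (0.929), another imprinted transcript. Dlk1 was closest to Agtr2 (0.937), an angiotensin receptor gene, and Meg3 to Mirg (0.909), a non-coding RNA of the same imprinted locus. Peg3 was closest to Ptgfrn (0.941) and next to Slc38a4 (0.936), an imprinted amino acid transporter gene. Mest was closest to St5 (0.891), Grb10 to Tcf3 (0.928) and Plagl1 to Phactr2 (0.892). Hes1, a Notch target and one of the markers that named the RPC-like class, followed Phactr2 and Zfp820 in likeness to Plagl1, at 0.813. Among the members themselves the value was lowest for Meg3 with Plagl1 (0.0262), and Grb10 with Plagl1 reached 0.790.

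Cells that divide were compared with other cells of the same class. A cell was called dividing when it had at least 2 UMIs of 8 proliferation genes after thinning to 2000 UMIs, and was compared with cells that had none. A cell with none can still be in the cycle, since genes of the list such as Ccnb1 and Ube2c peak late in it. In POM-like cells of the control, 280 dividing cells had 0.628 (0.579 to 0.680) times the Meg3 level of 1832 other cells, and in the mutant 232 dividing cells had 0.653 (0.601 to 0.709) times that of 1295. Dlk1 had ratios of 0.702 and 0.640, Peg3 0.684 and 0.659 and H19 0.756 and 0.893. Mest had 0.929 and 1.08, with intervals that held 1. Plagl1 had 1.01 in the control and 1.39 (1.12 to 1.72) in the mutant. In pericyte-like cells Meg3 again had 0.678 and 0.672 and Peg3 0.703 and 0.784, while Dlk1 had 0.565 and 1.74. Cdkn1c, an imprinted inhibitor of the cell cycle that is not one of the 8, had 0.811 and 0.751 in POM-like cells. Dividing and other cells were drawn from all clusters of a class, and the part of cluster make-up in these ratios was not tested.

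RPC-like cells were compared in the same way, and Grb10, Plagl1 and Peg3 are given here. Of the RPC-like cells, 1389 control and 2075 mutant cells were called dividing and 605 and 846 had no UMI of the list. The latter may include progenitors in other parts of the cycle, so the ratios need not compare dividing with resting cells. Grb10 had dividing over other ratios of 0.841 (0.758 to 0.934) and 0.809 (0.738 to 0.889), and Plagl1 had 0.979 and 1.02. Peg3 had 1.59 in the control and 0.958 in the mutant, so its direction differed between the libraries.

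The genotypes were then compared within each class, to ask which growth genes differed in the mutant eye. Over both libraries 110 pairs of member and class had at least 20 UMIs, and 21 of these had a mutant over control ratio past 1.5-fold, 11 higher and 10 lower, of which 18 had an interval away from 1. Over all genes measured in the same way in these classes, 11.9% of 157806 pairs of gene and class were past 1.5-fold. The 21 pairs rested on few counts, with a median of 22 UMIs in the library that had fewer, against 417 for the other 89. The 5 cells richest in the gene held a median of 72.7% of its UMIs in the 21 pairs and 18.5% in the others, taking the library with the higher share.

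**Figure D3:**
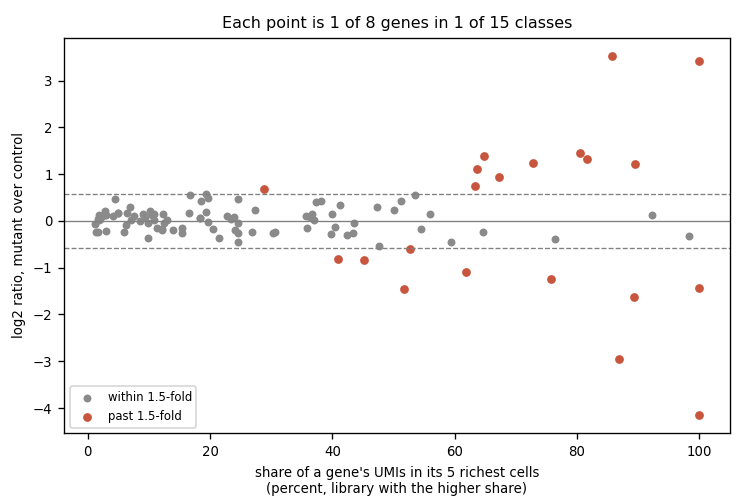
Each point is 1 member in 1 class, with the log2 ratio of mutant over control on the vertical axis and the percent of its UMIs held by the 5 richest cells, in the library where that is higher, on the horizontal axis. Dashed lines mark 1.5-fold, and pairs past 1.5-fold are coloured and have a median share of 72.7%.

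The past-fold pairs were found in 7 classes. In macrophage-like cells 6 members (H19, Dlk1, Meg3, Peg3, Mest and Plagl1) were higher in the mutant, where 14.2% of all genes were past 1.5-fold. Dlk1 had 10 control and 41 mutant UMIs there, and the 5 richest mutant cells held 80.5% of the latter. For H19 the 5 richest mutant cells held 67.3%. Mutant macrophage-like cells also had a globin share of 1.10% of UMIs against 0.0754% in the control and medians of 10033 against 5648 UMIs. The estimated free RNA was 1.17% in the control and 17.1% in the mutant, while the collagens stood at 0.987% and 1.37% of their POM-like level. With this estimate subtracted H19, Meg3, Peg3, Mest and Plagl1 were lower in the mutant instead. Whether the subtraction took away too much was not tested. Meg3, Peg3 and Mest were also lower with doublets kept (log2 ratios of −0.53, −0.56 and −0.073), and H19, Meg3 and Peg3 among cells that had Xist but lacked Y-linked UMIs (−0.46, −0.83 and −0.043). In erythroid-like cells Dlk1, Meg3, Peg3, Mest and Plagl1 were lower, with a background of 29.3%. The direction of 3 of these depended on the settings. Peg3 and Plagl1 had log2 ratios of 0.11 and 0.24 without cells over 20000 UMIs, Plagl1 had 0.81 at a Leiden resolution of 0.5, and Dlk1, of which 5 control cells held 89.4% of the control UMIs, had 0.43 when every cell weighed the same. In melanocyte-like cells, of which there were 51 and 30, H19, Meg3, Mest and Plagl1 were lower, with a background of 22.8%. H19 there had 110 and 14.1 CPM, but 1 control cell held 46 of its 76 control UMIs, and after thinning 7.84% of control and 10.00% of mutant cells had an H19 UMI. For Meg3 the 5 richest control cells held 91.4% of 58 control UMIs. For Plagl1 the 5 richest cells held 34.2% of 73 control and 61.9% of 21 mutant UMIs. The interval of the Mest ratio, 0.109 to 1.0002, held 1. In Schwann cell precursor-like cells, 38 and 40 in number, H19, Dlk1 and Plagl1 were higher, with a background of 20.7%. H19 had 11.6 and 134 CPM, and 1 mutant cell held 39 of its 91 mutant UMIs. The globin share of these cells was 0.0230% in the control and 0.892% in the mutant, the collagens had 818 and 1557 CPM, and the estimated free RNA was 0.341% and 15.9%. With it subtracted the 3 members remained higher, with log2 ratios of 3.13, 0.79 and 2.94. Plagl1 had only 4 control and 48 mutant UMIs, and 5 mutant cells held 72.9% of the latter. Dlk1 rested on few cells, since 1 mutant cell held 32 of its 57 mutant UMIs, and without cells over 20000 UMIs its log2 ratio turned from 1.21 to −0.75. Igf2 was past the limit in endothelial-like cells (27.6 and 44.2 CPM, background 12.8%) where it was higher, and Dlk1 in photoreceptor precursor-like cells, where its ratio was 0.569 with an interval of 0.288 to 1.11 (background 9.58%). Endothelial-like cells had a globin share of 0.0325% in the control and 1.61% in the mutant, and collagens at 119 and 362 CPM. The log2 ratio of Igf2 there, 0.68, was 0.95 with the estimated free RNA subtracted and −0.077 among cells that had Xist but lacked Y-linked UMIs. None of the 60 pairs measured in the remaining 8 classes was past 1.5-fold, the property by which these classes were set apart, beside 9.13% of all gene and class pairs there.

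**Figure D4:**
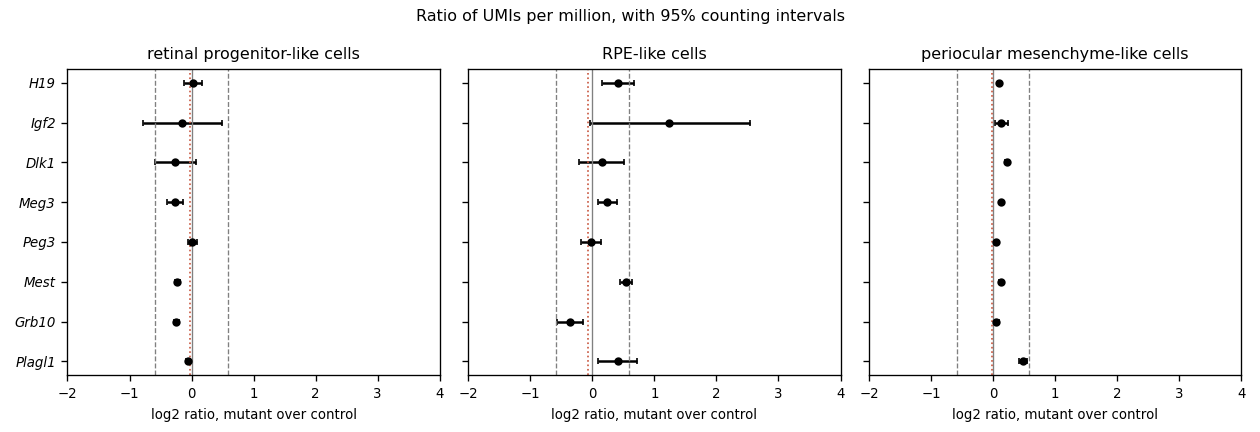
Log2 ratio of mutant over control for each member in retinal progenitor-like, RPE-like and periocular mesenchyme-like cells, with exact 95% intervals for counting error. Dashed lines mark 1.5-fold and the dotted line the median of all genes, and all points but Igf2 in RPE-like cells lie within 1.5-fold.

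RPE cells support the photoreceptors, and the study asked how loss of Myrf alters them. RPE-like cells had 376 control and 214 mutant cells. Mest had 527 and 770 CPM, a ratio of 1.46 (1.37 to 1.56). H19 had 84.0 and 112 CPM (1.34), Plagl1 56.9 and 75.3 CPM (1.32) and Meg3 243 and 287 CPM (1.18). Grb10 went the other way, with 172 and 134 CPM, a ratio of 0.778 (0.671 to 0.89999). Only Igf2, with 11 and 13 UMIs, was past 1.5-fold, at 2.35 (0.973 to 5.80), against 14.1% of all genes. The median log2 ratio of the members was 0.32, and that of all genes −0.07. Mutant RPE-like cells had medians of 3312.5 UMIs against 6739.5, a globin share of 1.49% against 0.607%, and collagens at 3.63% of their POM-like level against 2.13%. With the estimated free RNA, 9.13% (control) and 26.6% (mutant) of the class, subtracted the median became −0.56. Whether this took away too much was not tested. With a mitochondrial limit of 5% the median became −0.012. The direction of the median in RPE-like cells thus depended on these settings.

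POM cells arise from neural crest and mesoderm and not from the eye field. In POM-like cells all 8 members had ratios above 1 with intervals above 1. Plagl1 had 113 and 158 CPM, a ratio of 1.39 (1.33 to 1.46), and was higher in the mutant in 5 of 5 clusters with every interval above 1. The other ratios were 1.16 for Dlk1, 1.10 for Meg3, Mest and Igf2, 1.07 for H19 and 1.04 for Peg3 and Grb10. By cluster, H19, Igf2 and Meg3 were also higher in the mutant in 5 of 5, but Dlk1 and Mest were lower in 1, Peg3 in 2 and Grb10 in 3, and Mest had an interval under 1 in 1 cluster. The clusters held different numbers of cells by genotype, such as 523 control and 270 mutant cells in the one led by Tnn and Aspn and 264 and 310 in the one led by A2m, and the part of this make-up in the ratios was not tested. None of the 8 members was past 1.5-fold in the whole class, against 8.61% of all genes. The median log2 ratio was 0.13, beside −0.01 for all genes. Restricted to cells with Xist and without Y-linked UMIs, the median became −0.029 and the Plagl1 log2 ratio went from 0.48 to 0.15. This kept 8271 of 11544 control and 3045 of 12668 mutant cells, and the parts of the sex, depth and number of cells in the change cannot be told apart. Over the other settings the Plagl1 log2 ratio ran from 0.37 to 0.58.

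Retinal progenitors, like the RPE, arise from the eye field. In RPC-like cells Mest had 294 and 251 CPM, a ratio of 0.854 (0.829 to 0.881), and Grb10 399 and 337 CPM, a ratio of 0.844 (0.822 to 0.867). Both were lower in the mutant in 5 of 5 clusters with every interval under 1. Meg3 had a ratio of 0.834 (0.763 to 0.911) and was lower in 3 and higher in 2 of the 5 clusters, and Plagl1 had 0.959 (0.935 to 0.984). None of the members was past 1.5-fold, where 5.59% of all genes were. The median log2 ratio was −0.19, beside −0.02 for all genes. Over the alternative settings the log2 ratio of Grb10 ran from −0.26 to −0.12 and that of Mest from −0.65 to −0.20.

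Other genes of the same kinds were read beside the members, from lists of 46 other imprinted genes, of which 44 were in the files, and of 22 genes of the IGF pathway. In POM-like cells Igf1, the second IGF ligand, had 218 and 265 CPM, and the receptor gene Igf1r had 158 and 150 CPM. Igf2r, an imprinted gene whose product clears IGF2, had 88.2 and 104 CPM. The binding protein genes Igfbp2 and Igfbp5 had 2256 and 2932 CPM and 984 and 1218 CPM. In RPC-like cells Igf1r had 140 and 143 CPM, near its level in POM-like cells, while Igfbp2 had 176 and 162 CPM.

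Between the genotypes, 2 of 32 measured other imprinted genes in RPE-like cells were higher past 1.5-fold (Peg10 and Trappc9) and 1 was lower (Inpp5f), none with an interval away from 1, against 14.1% of all genes in either direction. The median log2 ratio of the 32 was −0.05. Of 17 IGF pathway genes there, 2 were higher and 1, Pappa, was lower with an interval that held 1. Igfbp2 had 695 and 1094 CPM in RPE-like cells, a ratio of 1.58 (1.49 to 1.67), and Htra1, a secreted protease, had a ratio of 1.54 (1.19 to 1.97). In POM-like cells 2 of 38 other imprinted genes were higher, Dio3 and Nap1l5, and none was lower, against 8.61% of all genes in either direction. Dio3, which inactivates thyroid hormone and lies in the locus of Dlk1 and Meg3, had 53 and 119 UMIs, a ratio of 2.85 (2.05 to 4.02). These are few UMIs for 2313 control and 1739 mutant POM-like cells. Dio3 was also among the leading genes of an RPC-like cluster at Leiden resolution 0.5. The part of free RNA and doublets in its ratio was not tested. Of 20 IGF pathway genes in POM-like cells, Igfbp7 was higher (1.84) and Irs4 lower (0.515). In RPC-like cells none of 35 other imprinted genes was higher and 5 were lower, against 5.59% of all genes in either direction. Peg10 (0.643), Airn (0.489) and Nap1l5 (0.565) had intervals under 1, while those of Magel2 and Zim1 held 1. Of 17 IGF pathway genes in RPC-like cells, Igfbp5 (1.52) and Igfbp3 (1.66, an interval that held 1) were higher and none was lower. The genes named here with intervals that held 1 were chosen after their values were seen.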

How the data were processed

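The deposited values were UMI counts of each gene in each cell, which the authors had not normalized, from 10x Genomics 3′ libraries. Per the labels, reads were aligned to mm10 with Cell Ranger 7.1.0 and analysed in Seurat 4.1.1. The headers of the deposited matrices give software version 3.1.0. The totals were 132436812 control and 135678970 mutant UMIs, with at least 500 per barcode. The filters of the study's methods had not been applied to the files. Here cells under 200 genes or over 15% mitochondrial UMIs were left out, and doublets were removed with Scrublet in scanpy 1.11.5. That removed 398 control and 350 mutant barcodes, or 3.33% and 2.69%. Rates of 10.4% and 11.1% would follow from an assumed 0.8% per 1000 barcodes, so doublets may remain. The study's limit of 2000 UMIs per cell was used only as an alternative.

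Cells of both libraries entered 1 clustering with no integration step. It used 1877 of the 2000 genes that varied most, 30 principal components, a graph of 15 neighbours and Leiden resolution 1. The members, the naming markers, other listed genes, globin, mitochondrial and sex-linked genes were left out of these features. Clusters were named from markers, and a name needed at least 3 detected markers and a score of 1.25. The names were made anew here, so the study's own may differ. Pericyte-like cells were a single cluster in which mesenchyme markers were also detected.

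UMIs were summed by class and library and divided by the class total. Sums carry Poisson intervals, shares Clopper-Pearson intervals and ratios conditional binomial intervals (scipy 1.17.1). Genes with under 20 UMIs over both libraries were not given a ratio. With 1 library per genotype, no test was made and 1.5-fold served as the limit. Cells were thinned to 2000 UMIs, and shallower cells left out, for shares and for dividing cells. Free RNA was estimated from globins, taken to have the profile of all kept cells of the library, and limited to 90% of a class. The estimate did not follow the collagens. In mutant photoreceptor precursor-like cells it was 26.6%, while the collagens stood at 0.583% of their POM-like level, so the subtraction may take away too much. The procedure was tested on simulated data. The 8 members were always named. Genes of the other lists were named where they were past 1.5-fold with an interval away from 1 or among the 6 most abundant in a class. Genes past 1.5-fold whose interval held 1 were named as well where a count was 5 or fewer, and these were chosen after their values were seen. The genes most like a member were the first 3 by correlation over clusters of at least 50 cells. The members, lists and rules were chosen with earlier results of these data known. Other ages of the study were not used here.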

Additional observations from a re-analysis of the deposited data

Results flagged for a closer look

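Meg3, Mest, Grb10 and Plagl1 had ratios of mutant over control on opposite sides of 1 in periocular mesenchyme-like and retinal progenitor-like cells, each with an interval away from 1. Meg3 had 1.10 in mesenchyme-like and 0.834 in progenitor-like cells, and Mest had 1.10 and 0.854. Grb10 had 1.04 and 0.844, and Plagl1 had 1.39 and 0.959. When cells were kept only if they had Xist and lacked Y-linked UMIs, the mesenchyme-like log2 ratios were −0.020 for Meg3, 0.00018 for Mest, −0.052 for Grb10 and 0.15 for Plagl1, so Meg3 and Grb10 were no longer above 1 there. By cluster, Grb10 was lower in the mutant in 3 of 5 mesenchyme-like clusters and Mest in 1, and Meg3 was higher in 2 of 5 progenitor-like clusters. The difference between the classes was not tested, because there was 1 library per genotype.

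A cluster led by Cartpt, Pax2 and Wnt7b, with Wnt8b among its leading genes, remained unnamed and stood in no comparison. It had 43 control and 38 mutant cells. In the control its levels were 456 CPM for H19, 413 CPM for Dlk1, 595 CPM for Meg3, 449 CPM for Mest, 189 CPM for Grb10, 189 CPM for Plagl1 and 169.9 CPM for Peg3. In the mutant they were 214 CPM for H19, 186 CPM for Dlk1, 623 CPM for Meg3 and 303 CPM for Mest. The H19, Dlk1 and Meg3 levels stood far above those of retinal progenitor-like cells (26.4, 5.56 and 35.3 CPM in the control). The make-up of this cluster was not tested.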

How the results depend on the processing

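Of the alternatives for the main summaries, 55 stayed near the reported value and 12 moved. The median log2 ratio of the members in RPE-like cells, 0.32, became −0.012 with a mitochondrial limit of 5% and −0.56 with free RNA subtracted. That in periocular mesenchyme-like cells, 0.13, became 0.075 with the 5% limit, 0.22 without cells over 20000 UMIs, 0.20 with every cell given the same weight and −0.029 when cells were kept only if Xist was detected and Y-linked UMIs were not (Xist-only cells). Pairs past 1.5-fold, 21 of 110, became 5 of 11 under the study's limit of 2000 UMIs, 8 of 88 in Xist-only cells, 38 of 99 with free RNA subtracted and 12 of 99 without the 5 richest cells. With the 2000 UMI limit, under which fewer cells and classes remained (6 control and 5 mutant classes, and no mesenchyme value), 2 members in the control and 2 in the mutant kept the reported highest class. For single members, 357 values stayed near the reported one, 94 moved and 17 changed sign from a ratio past 1.5-fold with an interval away from 1. Among the 94 and 357, 25 other log2 ratios changed sign too, 8 of them in Xist-only cells and 5 each with free RNA subtracted and the 5% limit. The cause of these changes was not tested.

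The 17 changes of sign are given as log2 ratios. Without cells over 20000 UMIs they were Dlk1 in Schwann cell precursor-like cells (−0.75) and, in erythroid-like cells, Peg3 (0.11) and Plagl1 (0.24). Plagl1 also changed there at Leiden resolution 0.5 (0.81), and Dlk1 with equal weights (0.43). In Xist-only cells they were Igf2 in endothelial-like cells (−0.077) and H19 (−0.46), Meg3 (−0.83) and Peg3 (−0.043) in macrophage-like cells. With doublets kept, macrophage-like Meg3 (−0.53), Peg3 (−0.56) and Mest (−0.073) changed. With free RNA subtracted, macrophage-like H19 (−0.90), Meg3 (−3.38), Peg3 (−3.26), Mest (−2.22) and Plagl1 (−1.56) changed. No paired analysis was possible because each genotype had 1 library. Depth limits Igf2 in retinal classes and the members with few UMIs in the smallest classes.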

Other observations

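Other imprinted genes had their own classes. Cdkn1c, the growth-restraining inhibitor of the cell cycle, was highest in muscle-like cells, with 9571 control and 8194 mutant CPM. Its mutant level was lower there (0.856, 0.843 to 0.870) and in pericyte-like (0.748, 0.733 to 0.763), periocular mesenchyme-like (0.924, 0.913 to 0.935) and retinal progenitor-like cells (0.813, 0.774 to 0.854), with intervals for counting error only. None of these ratios was past 1.5-fold, and the parts of sex and cluster make-up in them were not tested. In surface epithelium-like cells Cdkn1c was slightly higher in the mutant, with 822 and 840 CPM. Within amacrine or horizontal-like cells it had 2465 and 2401 CPM in the Ptf1a cluster and 446 and 320 CPM in the Onecut2 cluster. Nnat, which encodes the membrane protein neuronatin, was highest in amacrine or horizontal-like cells, at 5601 and 5377 CPM, followed by photoreceptor precursor-like cells at 2289 and 2163 CPM. Retinal progenitor-like cells had 183 and 195 CPM of Nnat. Gnas, which encodes a G protein subunit, was the most abundant listed gene of endothelial-like cells, at 4650 and 4728 CPM.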
